A study of Homo sapiens with 48 samples.

Results

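The regulators of mitochondrial biogenesis described here are 8 genes, the transcriptional coactivators PPARGC1A, PPARGC1B and PPRC1 and the transcription factors ESRRA, NRF1, GABPA, PPARA and PPARD. They were found by name, as the rows of the deposited count table whose Ensembl identifiers map to these symbols. The naming rule uses no measured value, but the set was proposed with earlier results of these data known. All 8 were found among the 48898 genes of the table, and all 8 passed the filter on low counts in each of the 5 sets of libraries that were fitted. NRF1 here is nuclear respiratory factor 1, and not NFE2L2, the oxidative stress factor that is often called NRF2.

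Mitochondria are built mostly from proteins encoded in the nucleus, and these regulators set how strongly the genes of those proteins are transcribed. PPARGC1A (PGC-1 alpha), PPARGC1B (PGC-1 beta) and PPRC1 (PRC) bind no DNA of their own but are recruited by factors such as NRF1, GABPA and ESRRA to the promoters of respiratory chain, import and mitochondrial DNA maintenance genes, TFAM among them. PPARA and PPARD are lipid-activated nuclear receptors that pair with retinoid X receptors on genes of fatty acid oxidation. PPARGC1A is best known from brown fat, muscle and liver, where cold, exercise and fasting induce it, and in human melanoma the lineage factor MITF can drive it.

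The 48 libraries of poly(A) RNA fall into 16 groups of 3. They come from IMR-90, human fibroblasts of fetal lung, and from SK-MEL-103, a human melanoma line. Doxorubicin, a topoisomerase poison that damages DNA, was given at 200 nM for 48 h and then withdrawn, to drive cells into senescence, a lasting cell cycle arrest. In each line, doxorubicin cells had been transfected 1 day earlier with siMFN1, siMFN2, both (siMFN1+2), siMAVS or a control siRNA, with RNA from day 7, and proliferating cells received the control siRNA alone. The day on which RNA of proliferating cells was taken is not given in the labels. MFN1 and MFN2 are the mitofusins that fuse outer mitochondrial membranes, and MAVS is an antiviral signalling adaptor on the same membrane. In a separate IMR-90 experiment doxorubicin cells of day 7 were treated for another 48 h with 20 µM MFI8, 10 µM BI or DMSO alone, with RNA from day 9, and proliferating cells received DMSO. MFI8 was given as a mitofusin inhibitor and BI as an activator, per the series' description. Each line is a single established line, and the siRNA sequences are not given in the sources used here. Nothing in the labels says that replicates are separate cultures, so p-values measure only the spread between these libraries.

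Libraries held 15206115 to 79204217 counts, and depth went with the replicate number, since number 3 was the shallowest library of every group. The silenced genes were low in the libraries of their siRNA. MFN1 had 7.27 to 7.91 CPM (the output of edgeR's cpm function with TMM factors, so that libraries of unequal depth compare) in IMR-90 siMFN1 libraries, against 39.1 to 65.1 CPM with the control siRNA. MFN2 had 17.3 to 20.3 CPM with siMFN2, against 156 to 181 CPM, and MAVS had 40.7 to 51.3 CPM with siMAVS, against 108 to 150.1 CPM. In SK-MEL-103 the ranges were 13.02 to 19.5 against 49.5 to 55.2 CPM for MFN1, 18.9 to 20.1 against 88.5 to 102 CPM for MFN2 and 48.9 to 80.0 against 160.4 to 175 CPM for MAVS. The proliferation marker MKI67 averaged 22.8 ± 13.1 CPM in doxorubicin IMR-90, against 506 ± 21.7 CPM in proliferating cells, and 0.451 ± 0.467 CPM in doxorubicin SK-MEL-103, against 248 ± 73.0 CPM (SD, n = 3 each). The 9 fibroblast markers summed to 5350 to 51400 CPM in IMR-90 libraries and to 15.4 to 110.0 CPM in SK-MEL-103 libraries. The 10 melanoma and melanocyte markers summed to 394 to 696 CPM in SK-MEL-103 and to 18.2 to 82.0 CPM in IMR-90, with 4 of the 10 at an average of 1 CPM or more in SK-MEL-103 and the pigment cell genes MLANA and TYR under 0.1 CPM there. The 4 epithelial markers summed to 119 to 396 CPM in IMR-90 and to 42.9 to 128 CPM in SK-MEL-103, with 2 of the 4 at an average of 1 CPM or more in each line and EPCAM under 0.1 CPM in both. Endothelial and leukocyte markers summed to at most 3.81 CPM in any library.

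RefSeq promoter windows (GRCh38.p14, 250 bases before to 50 bases after an annotated start) were given for 7 of the 8 regulators, with 9 windows in all. They are shown because several of these factors are known to bind the promoters of one another's genes. Bases before the start that no exon of GENCODE 29 covers are printed for PPRC1 and PPARD, which fell with doxorubicin in all 3 comparisons below. They are also printed for ESRRA, which was called in none of these, and for the second of 2 PPARA starts. PPARA fell in IMR-90 with the control siRNA and rose in SK-MEL-103. Its first window, which held no match, is not printed, and a link between motifs and these changes was not tested. Capitals mark matches to the motifs searched.
PPRC1 (chr10:102132790-102132993, + strand): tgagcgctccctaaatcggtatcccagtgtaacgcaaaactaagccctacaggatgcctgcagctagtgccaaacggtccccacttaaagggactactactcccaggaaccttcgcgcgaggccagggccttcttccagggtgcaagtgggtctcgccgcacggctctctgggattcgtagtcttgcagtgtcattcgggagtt
PPARD (chr6:35342308-35342557, + strand): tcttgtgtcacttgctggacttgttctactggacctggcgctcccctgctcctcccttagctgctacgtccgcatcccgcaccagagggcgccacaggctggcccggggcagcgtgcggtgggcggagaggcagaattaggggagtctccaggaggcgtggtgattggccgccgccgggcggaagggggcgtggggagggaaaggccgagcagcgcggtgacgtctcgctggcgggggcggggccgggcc
ESRRA (chr11:64305274-64305523, + strand): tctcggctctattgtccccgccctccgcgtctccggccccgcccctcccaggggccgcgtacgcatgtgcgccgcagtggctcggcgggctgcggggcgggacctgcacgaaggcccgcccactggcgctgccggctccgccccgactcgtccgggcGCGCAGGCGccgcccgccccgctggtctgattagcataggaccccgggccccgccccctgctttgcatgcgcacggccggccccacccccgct
PPARA (chr22:46150653-46150787, + strand): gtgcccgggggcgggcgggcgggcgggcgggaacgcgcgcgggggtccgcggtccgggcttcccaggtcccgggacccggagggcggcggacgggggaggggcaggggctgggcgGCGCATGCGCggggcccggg

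The motifs were GCGCANGCG for NRF1, CCGGAAGT for the ETS family to which GABPA belongs, TCAAGGTCA for the estrogen-related receptors, TGACGTCA for CREB and the E-box CACGTG, each on both strands. The ESRRA window held GCGCAGGCG, a match to the NRF1 motif, 93 bases before the start. The second PPARA window held GCGCATGCGC, in which the NRF1 motif matched on both strands in 2 overlapping positions from 20 bases before the start. The GABPA window held ACTTCCGG, the ETS motif on the other strand, in this ETS factor's own gene. It lies 67 bases before the RefSeq start of the window, but after the start of the gene in GENCODE 29. That window lies wholly within exons of GENCODE 29 and is not printed. No motif matched in the PPRC1, PPARD and PPARGC1B windows or the first PPARA window. The PPARGC1B and GABPA windows and the second windows of PPARGC1A and PPARA lie inside the spans of their genes in GENCODE 29. A lack of matches there says nothing about the bases before the GENCODE start, and distances are counted from the RefSeq start of each window. Of the 2 PPARGC1A windows, one held an E-box and the other no match. Among all 35116 windows of the table, 7.52% held the NRF1 motif, 4.14% the ETS motif, 0.353% the estrogen-related receptor motif, 1.85% the CREB motif and 7.26% the E-box. Windows rich in G and C hold the NRF1 motif more easily by letters alone, and the second PPARA window was 86.7% G and C and the ESRRA window 75%, against a median of 58.7% over all windows. These matches are letters in a window and were not tested as binding sites.

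The 8 genes span very different levels. Per length, PPARD and PPRC1 were among the 3 highest in all 16 groups, PPARGC1A was the lowest in all 16 and PPARGC1B the next lowest in 15. Per kilobase of exon, doxorubicin IMR-90 cells with the control siRNA had 12.6 ± 2.48 CPM of PPARD, 11.3 ± 1.61 CPM of ESRRA and 10.7 ± 1.78 CPM of PPRC1 (SD, n = 3), which did not differ beyond their spread. GABPA followed at 7.04 ± 1.59 CPM per kilobase, then NRF1 at 2.46 ± 0.121 and PPARA at 1.55 ± 0.279. PPARGC1B had 0.0824 ± 0.0239 CPM per kilobase and PPARGC1A 0.0378 ± 0.0142, so the 2 best known coactivators were far under their relative PPRC1. In proliferating IMR-90 with the control siRNA, PPARD had 22.2 ± 0.883 and PPRC1 21.4 ± 1.02 CPM per kilobase, within their spread, and GABPA and ESRRA came next at 11.8 ± 2.06 and 9.65 ± 1.40. Doxorubicin SK-MEL-103 cells had ESRRA first, at 22.2 ± 1.52 CPM per kilobase, ahead of PPRC1 at 13.8 ± 0.841 and PPARD at 13.5 ± 1.91. Proliferating SK-MEL-103 cells had 22.1 ± 4.45 for PPARD, 22.1 ± 3.62 for PPRC1 and 19.8 ± 4.97 for ESRRA, which overlapped. There PPARGC1B, at 0.754 ± 0.207 CPM per kilobase, stood above PPARA at 0.430 ± 0.172. Lengths are of the merged exons in GENCODE 29, and the authors may have counted with another release. In bulk RNA, fewer cells that express a gene and less RNA per cell cannot be told apart.

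**Figure D1:**
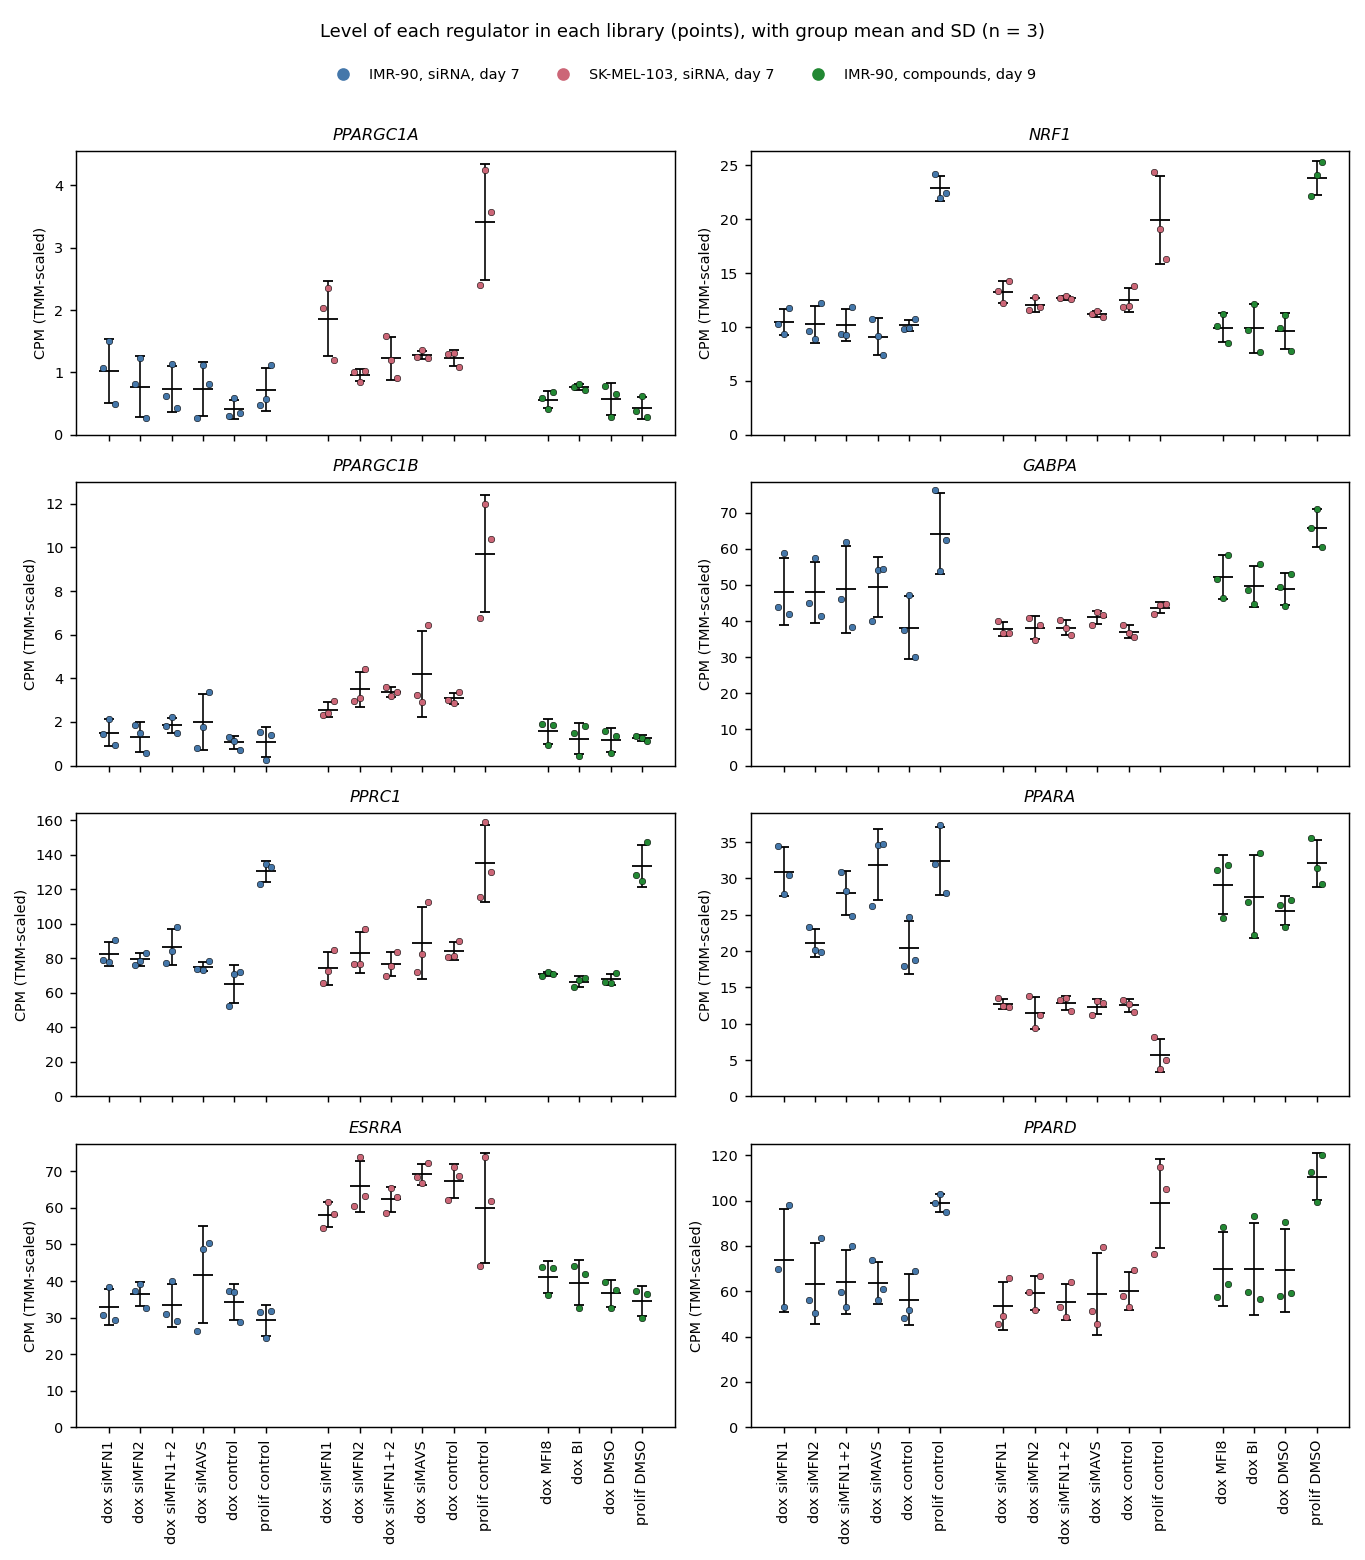
CPM of each regulator (vertical axis, linear from 0) in every library (points) of the 16 groups, with group mean and SD (n = 3); colours mark the 3 experiments, and dox and prolif stand for doxorubicin and proliferating cells. PPRC1 and NRF1 sit low in all doxorubicin groups and high in the proliferating groups. PPARA does the opposite in SK-MEL-103, with 11.6 to 13.3 CPM in doxorubicin control libraries and 3.80 to 8.20 CPM in proliferating ones. PPARD is lower in doxorubicin by group mean, but silenced libraries reach 98.0 CPM in IMR-90 and 79.5 CPM in SK-MEL-103. Those lie above the lowest proliferating library of their line.

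The first question was how the regulators differ between doxorubicin and proliferating cells. Of the 8 regulators, 5 fell in IMR-90 with the control siRNA, 6 fell and 1 rose in SK-MEL-103, and 4 fell in IMR-90 in DMSO at day 9. PPRC1, NRF1, GABPA and PPARD were the 4 that fell in all 3 comparisons, by 0.33 to 1.28 on the log2 scale. ESRRA passed the test in none of them. Calls are at an adjusted p below 0.05 over all genes (edgeR quasi-likelihood test, Benjamini-Hochberg). Among all genes tested, 27.4% were higher and 24.4% lower in IMR-90 with the control siRNA, 29.8% higher and 30.6% lower in SK-MEL-103, and 28.8% higher and 27.1% lower in IMR-90 in DMSO. The median log2 fold change of the 8 regulators was -0.68, -0.78 and -0.37 in these comparisons, beside 0.09, 0.03 and 0.10 over all genes tested. Doxorubicin and proliferating libraries did not overlap for 5, 7 and 5 of the 8 regulators, and for 55.7%, 62.6% and 62.4% of all genes.

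Among the coactivators, PPRC1, which in human cells is induced by growth signals, fell in all 3 comparisons. It had 52.7, 71.0 and 71.9 CPM in doxorubicin IMR-90 libraries, against 123.3, 135 and 133 CPM in proliferating ones with the control siRNA. The groups were far apart, and the log2 fold change was -0.97 (SE 0.13, adjusted p = 1.91e-05). In SK-MEL-103 the doxorubicin libraries had 81.0, 81.5 and 90.1 CPM, against 116, 159 and 130.2 CPM in proliferating cells (-0.77, SE 0.17, adjusted p = 0.000813). At day 9 the doxorubicin IMR-90 libraries in DMSO had 66.3, 65.9 and 71.4 CPM, against 128, 125 and 148 CPM (-0.97, SE 0.09, adjusted p = 6.58e-06). PPRC1 thus had no overlap of groups in any of the 3.

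PPARGC1A fell in SK-MEL-103, where doxorubicin libraries had 1.30, 1.31 and 1.08 CPM, against 2.41, 4.25 and 3.58 CPM in proliferating libraries (-1.52, SE 0.24, adjusted p = 3.53e-05). PPARGC1B fell there as well, to 3.02, 2.89 and 3.37 CPM in doxorubicin libraries, against 6.78, 11.99 and 10.4 CPM in proliferating ones (-1.74, SE 0.26, adjusted p = 2.27e-05). Neither pair of groups overlapped. In IMR-90 both genes were close to the limit of what these libraries can show. PPARGC1A had 20, 30 and 9 counts in the doxorubicin control libraries, or 0.302, 0.587 and 0.344 CPM, against 33, 19 and 26 counts, or 0.484, 0.578 and 1.12 CPM, in proliferating ones (-0.64, 95% interval -1.95 to 0.66, adjusted p = 0.393). PPARGC1B had 1.33, 1.13 and 0.725 CPM in doxorubicin IMR-90, against 1.52, 0.274 and 1.42 CPM (0.03, 95% interval -1.16 to 1.23, adjusted p = 0.965). In DMSO at day 9 the log2 fold changes were 0.44 for PPARGC1A (95% interval -0.46 to 1.34, adjusted p = 0.37) and -0.09 for PPARGC1B (95% interval -1.20 to 1.02, adjusted p = 0.886). Changes of either gene in IMR-90 within these intervals were not detectable in these libraries, where few counts and the spread between libraries go together.

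ESRRA encodes estrogen-related receptor alpha, an orphan receptor through which PGC-1 coactivators act on respiratory chain genes. It had 37.4, 36.9 and 28.7 CPM in doxorubicin IMR-90 libraries, against 31.5, 24.3 and 31.9 CPM in proliferating ones (0.26, 95% interval -0.19 to 0.72, adjusted p = 0.314). In SK-MEL-103 it had 62.2, 71.1 and 68.8 CPM in doxorubicin libraries, against 44.1, 74.0 and 61.8 CPM (0.07, 95% interval -0.22 to 0.37, adjusted p = 0.66). At day 9 it had 39.7, 32.5 and 37.6 CPM, against 37.3, 29.9 and 36.4 CPM (0.09, 95% interval -0.23 to 0.42, adjusted p = 0.601). The groups overlapped each time. Exons of ESRRA share 9.37% of their length with TRMT112 on the other strand, and the strand setting of the counting is not stated, so part of its reads may belong to that gene.

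NRF1, which binds the promoters of many respiratory chain genes, had the lowest fold change of the 8 regulators in both IMR-90 comparisons. It had 9.86, 9.88 and 10.7 CPM in doxorubicin IMR-90, against 24.1, 22.0 and 22.4 CPM in proliferating cells (-1.14, SE 0.16, adjusted p = 4.42e-05). At day 9 it had 9.95, 11.1 and 7.80 CPM in doxorubicin cells, against 22.2, 24.1 and 25.3 CPM (-1.28, SE 0.17, adjusted p = 0.000131). In SK-MEL-103 it had 11.8, 11.9 and 13.8 CPM, against 24.4, 19.1 and 16.3 CPM (-0.78, SE 0.12, adjusted p = 3.51e-05). Doxorubicin and proliferating libraries did not overlap in any of the 3.

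GABPA, the DNA-binding subunit of nuclear respiratory factor 2 (GABP), fell to 37.5, 47.1 and 29.9 CPM in doxorubicin IMR-90, against 76.1, 54.0 and 62.5 CPM in proliferating libraries (-0.72, SE 0.22, adjusted p = 0.0122). The call was lost without the proliferating library numbered 1 (adjusted p = 0.0617), without the doxorubicin library numbered 3 (0.0538) and in a fit of only the libraries numbered 19 to 35 by the authors (-0.59, adjusted p = 0.0822). That fit leaves out replicate 3 of the IMR-90 siRNA groups, which the authors numbered 89 to 93, except that of siMAVS, number 35. In SK-MEL-103 the fall was small but the libraries were tight, with 39.0, 36.6 and 35.5 CPM in doxorubicin cells, against 41.9, 44.3 and 44.7 CPM (-0.33, SE 0.08, adjusted p = 0.00224, and 0.0565 without a filter on low counts). At day 9 GABPA had 49.5, 44.3 and 53.1 CPM in doxorubicin IMR-90, against 65.8, 71.0 and 60.6 CPM (-0.42, SE 0.12, adjusted p = 0.0148). Without the proliferating DMSO library numbered 2 that adjusted p was 0.0525, and 0.058 with the replicate number as a block in a fit of the 6 libraries alone. The partner subunit GABPB1, which carries the activation domain, fell in all 3, to 18.1 ± 0.343, 16.1 ± 1.53 and 16.1 ± 2.05 CPM in doxorubicin IMR-90, SK-MEL-103 and IMR-90 in DMSO, against 36.3 ± 1.19, 34.7 ± 3.09 and 34.4 ± 1.79 CPM in their proliferating cells (log2 fold changes -0.98, -1.21 and -1.08; adjusted p = 2.06e-05, 7.29e-09 and 2.25e-05). GABPA exons share 7.61% of their length with ATP5PF, a subunit gene of ATP synthase read from the other strand, which itself fell in SK-MEL-103 (-0.35, adjusted p = 0.0136) and in DMSO (-0.56, adjusted p = 7.39e-05) and had -0.35 (adjusted p = 0.223) in IMR-90 with the control siRNA. The part of those shared reads in the fall of GABPA was not tested.

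PPARD, a widely expressed receptor that drives fatty acid use in muscle, fell in all 3 comparisons. It had 48.4, 51.7 and 69.0 CPM in doxorubicin IMR-90, against 99.0, 103 and 94.9 CPM (-0.78, SE 0.24, adjusted p = 0.0123, and 0.0567 without the doxorubicin library numbered 1). In SK-MEL-103 it had 57.8, 53.0 and 69.5 CPM, against 76.5, 115 and 105 CPM (-0.81, SE 0.21, adjusted p = 0.00351). At day 9 it had 58.1, 90.4 and 59.2 CPM, against 113, 99.2 and 119.9 CPM (-0.67, SE 0.23, adjusted p = 0.0295). Groups were apart each time, but the day 9 call depended on single libraries. It was lost without any 1 of 4 of the 6, namely doxorubicin libraries 1 (adjusted p = 0.114) and 3 (0.0968) and proliferating libraries 1 (0.0712) and 3 (0.0845).

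PPARA, the fasting-induced receptor of liver fat oxidation, went opposite ways in the 2 lines. In doxorubicin IMR-90 it fell to 17.96, 24.7 and 18.7 CPM, against 32.0, 37.3 and 28.0 CPM in proliferating cells (-0.63, SE 0.16, adjusted p = 0.00392). In doxorubicin SK-MEL-103 it rose to 13.3, 12.7 and 11.6 CPM, against 8.20, 3.80 and 5.03 CPM in proliferating cells (1.02, SE 0.20, adjusted p = 0.000368). The groups did not overlap in either line. At day 9 it had 26.4, 23.3 and 27.1 CPM in doxorubicin IMR-90, against 35.6, 31.5 and 29.2 CPM (-0.32, 95% interval -0.68 to 0.03, adjusted p = 0.111), and with the replicate number as a block, which pairs these libraries, it fell by 0.33 (adjusted p = 0.0284), while in a fit of the 6 libraries alone with the block, which called 57.5% of genes, the adjusted p was 0.103.

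**Figure D2:**
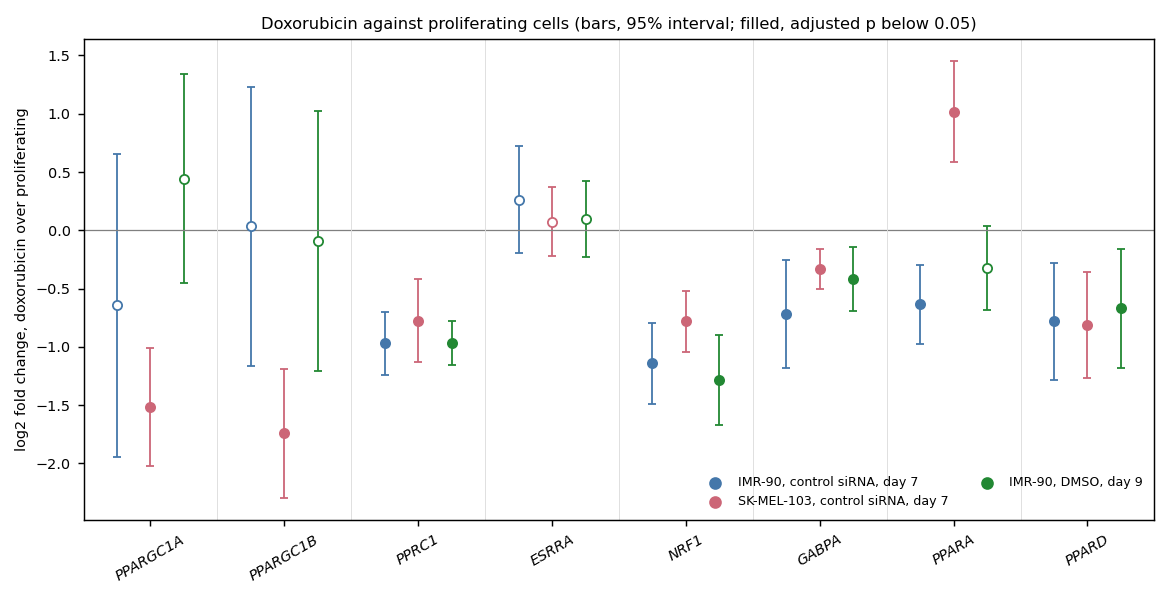
Log2 fold change of doxorubicin over proliferating cells (vertical axis) for each regulator in 3 comparisons (colours), with 95% intervals; filled points are called at an adjusted p below 0.05. PPRC1, NRF1, GABPA and PPARD lie below 0 in all 3, ESRRA is open throughout, and PPARA is at -0.63 in IMR-90 with the control siRNA and at 1.02 in SK-MEL-103.

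The difference between the lines was tested as the log2 fold change with doxorubicin in SK-MEL-103 less the one in IMR-90. A single fit of the 36 siRNA libraries gave this contrast, and 22.2% of all genes differed. Among the regulators 2 of 8 did. The PPARA effect was higher in SK-MEL-103 by 1.76 on the log2 scale (SE 0.27, adjusted p = 2.91e-05), and that call held with any 1 library left out. The PPARGC1B effect was lower in SK-MEL-103, by -1.68 (SE 0.60, adjusted p = 0.0432), but its adjusted p was above 0.05 without any 1 of 8 of the 12 libraries, and 0.0709 without a filter on low counts. The adjusted p was highest without the doxorubicin IMR-90 library numbered 1 (-1.48, adjusted p = 0.141) and was 0.118 without the proliferating IMR-90 library numbered 2, which held 9 counts of PPARGC1B. For PPRC1, ESRRA and PPARD the differences were 0.29, -0.10 and 0.07, with adjusted p of 0.355, 0.85 and 0.928. NRF1 had 0.46 (95% interval 0.06 to 0.87, adjusted p = 0.0922, and 0.0139 without the proliferating SK-MEL-103 library numbered 1). GABPA had 0.48 (95% interval -0.01 to 0.96, adjusted p = 0.156, and 0.0488 without the doxorubicin IMR-90 library numbered 2). PPARGC1A had -0.80, with a 95% interval from -2.09 to 0.48 (adjusted p = 0.402), so its fall in SK-MEL-103 was not shown to differ from IMR-90. Between the 2 IMR-90 experiments, day 9 in DMSO minus day 7 with the control siRNA, 0% of genes differed and no regulator did, with 1214 genes at an unadjusted p below 0.05 and 20 called by DESeq2. Day, siRNA and solvent change together between these experiments and cannot be told apart.

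The lines themselves also differed. Proliferating SK-MEL-103 cells had higher PPARGC1A, PPARGC1B and ESRRA and lower PPARA and GABPA than proliferating IMR-90 cells, with the libraries given above. Over all genes tested 23.9% were higher and 28% lower. PPARGC1B averaged 9.72 ± 2.67 CPM in SK-MEL-103 and 1.07 ± 0.694 CPM in IMR-90 (3.16, SE 0.42, adjusted p = 3.31e-07), and PPARGC1A 3.41 ± 0.933 and 0.727 ± 0.343 CPM (2.39, SE 0.40, adjusted p = 1.21e-05). ESRRA averaged 59.9 ± 15.1 CPM in SK-MEL-103 and 29.2 ± 4.25 CPM in IMR-90 (1.07, SE 0.19, adjusted p = 2.15e-05). PPARA averaged 5.68 ± 2.27 CPM in SK-MEL-103 and 32.4 ± 4.69 CPM in IMR-90 (-2.46, SE 0.20, adjusted p = 1.85e-11). GABPA was lower by -0.52 (SE 0.17, adjusted p = 0.011, and 0.0871 without the proliferating IMR-90 library numbered 1). The log2 fold changes of PPRC1, NRF1 and PPARD were 0.09, -0.15 and 0.03, with 95% intervals of -0.22 to 0.39, -0.44 to 0.13 and -0.43 to 0.50.

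Between doxorubicin cells of the 2 lines, where 30.6% of genes were higher and 32.8% lower in SK-MEL-103, PPARGC1A, PPARGC1B, ESRRA and PPRC1 were higher. PPARGC1A averaged 1.23 ± 0.127 CPM in SK-MEL-103 and 0.411 ± 0.154 CPM in IMR-90 (1.59, SE 0.45, adjusted p = 0.00301), PPARGC1B 3.09 ± 0.249 and 1.06 ± 0.308 CPM (1.47, SE 0.42, adjusted p = 0.00352) and ESRRA 67.3 ± 4.62 and 34.3 ± 4.89 CPM (0.98, SE 0.19, adjusted p = 4.92e-05). PPARA was lower, with 12.5 ± 0.854 CPM in SK-MEL-103 and 20.5 ± 3.69 CPM in IMR-90 (-0.70, SE 0.19, adjusted p = 0.00187), a smaller gap than in proliferating cells by the contrast of 1.76 given above. PPRC1 had 0.38 (SE 0.15, adjusted p = 0.0282), which was not called with RLE scaling (0.29, adjusted p = 0.12) or by DESeq2 (adjusted p = 0.13), without the doxorubicin IMR-90 library numbered 1 (0.25, 0.172) or without the doxorubicin SK-MEL-103 library numbered 3 (0.34, 0.0774). NRF1, GABPA and PPARD were not called.

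**Figure D3:**
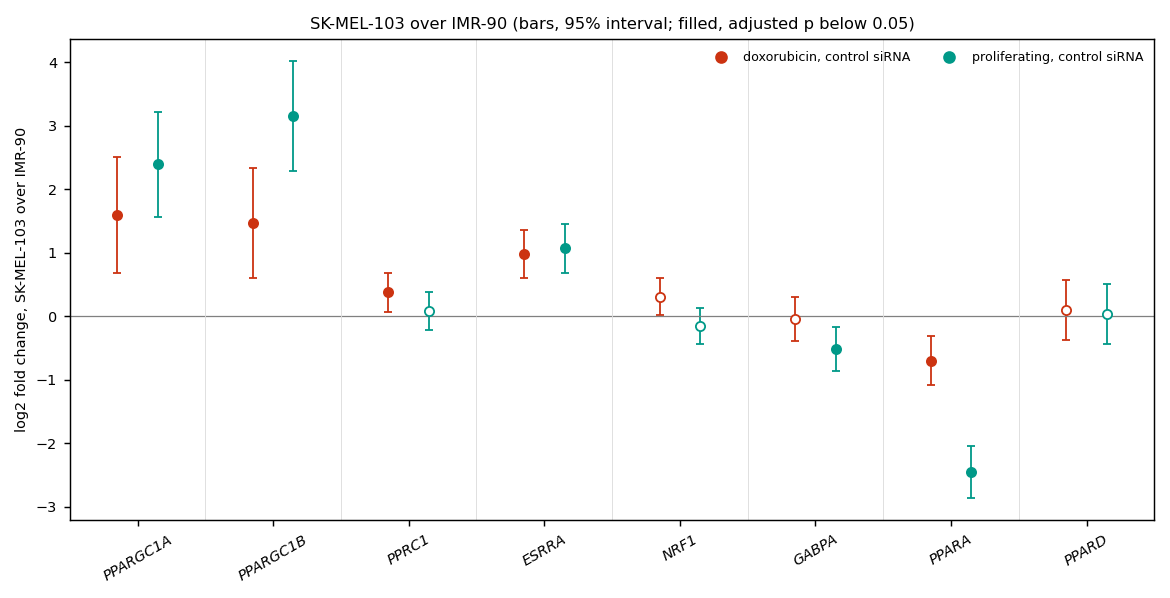
Log2 fold change of SK-MEL-103 over IMR-90 (vertical axis) for each regulator in doxorubicin and in proliferating cells with the control siRNA, with 95% intervals; filled points are called at an adjusted p below 0.05. PPARGC1A, PPARGC1B and ESRRA lie above 0 in both states, and PPARA lies below 0 in both, at -0.70 in doxorubicin and -2.46 in proliferating cells.

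The next question was whether silencing the mitofusins or MAVS, or giving the compounds, changed the regulators in doxorubicin cells. No regulator was called in any of these 10 comparisons by the edgeR test without a replicate block, and 9 of the 80 tests had an unadjusted p below 0.05. Of the 32 tests with siRNAs in IMR-90 these were 7, where 15.7%, 13.5%, 16.4% and 15.1% of all genes had such a p with siMFN1, siMFN2, siMFN1+2 and siMAVS. Of the 32 in SK-MEL-103 they were 2, beside 5.73%, 3.43%, 4.11% and 3.62% of all genes. Few genes were called at all, with 1.58% of those tested for siMFN1, 0.225% for siMFN2, 1.57% for siMFN1+2 and 0.634% for siMAVS in IMR-90, and 0.123%, 0.0669%, 0.24% and 0.1% for the same siRNAs in SK-MEL-103. For MFI8 and BI 0% were called, with 371 and 175 genes at an unadjusted p below 0.05 and 1 and 0 called by DESeq2. With the replicate number as a block in a fit of the 6 libraries, which pairs these strongly, 503 genes (2.75%) were called for MFI8 and 695 (3.84%) for BI, none of them a regulator. For siMFN1, siMFN2 and siMFN1+2 in IMR-90 that fit called 2, 1 and 3 regulators, beside 17.9%, 14.8% and 18% of genes. For siMFN1 in SK-MEL-103 it called 4, beside 19% of genes, and these are named below. The 4 siRNA comparisons of a line share their 3 control libraries, as do the 2 compounds, so their values are not independent of each other.

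PPARA came nearest to a call, with siMFN1 and siMAVS in IMR-90. It had 34.5, 27.8 and 30.4 CPM in siMFN1 libraries and 26.3, 34.6 and 34.8 CPM in siMAVS libraries, against 17.96, 24.7 and 18.7 CPM with the control siRNA. All 6 silenced libraries were above the 3 controls and near the 28.0 to 37.3 CPM of proliferating cells. Groups did not overlap for 18.8% of all genes with siMFN1 and 16% with siMAVS. The log2 fold changes were 0.59 (SE 0.16, adjusted p = 0.0779) and 0.62 (SE 0.16, adjusted p = 0.0802), with 0.0158 and 0.0161 by DESeq2. Without the control library numbered 2 the adjusted p were 0.0403 (siMFN1) and 0.0384 (siMAVS), and without the siMAVS library numbered 1 that of siMAVS was 0.0487. MKI67 had 34.9, 38.6 and 110 CPM in siMFN1 libraries, against 11.1, 20.3 and 37.0 CPM with the control siRNA (1.42, adjusted p = 0.25), and 10.2, 30.0 and 38.1 CPM with siMAVS (adjusted p = 0.92), and its part in the level of PPARA was not tested. With siMFN1+2 PPARA had 30.8, 28.3 and 24.8 CPM (0.45, adjusted p = 0.169), all above the controls, where 20.2% of all genes did not overlap, while siMFN2 libraries had 23.4, 20.2 and 19.8 CPM (0.03, 95% interval -0.30 to 0.37) and overlapped them. In SK-MEL-103 PPARA stayed between 9.46 and 13.8 CPM in the 12 silenced libraries, against 11.6 to 13.3 CPM in the controls. The difference between the lines was called for no regulator with any siRNA, with 5 of 32 tests at an unadjusted p below 0.05, where 9.24%, 6.2%, 8.87% and 7.71% of all genes had one for siMFN1, siMFN2, siMFN1+2 and siMAVS, beside calls for 0.153% of all genes for siMFN1, 0.0431% for siMFN2, 0.144% for siMFN1+2 and 0.0431% for siMAVS.

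Replicate numbers paired the libraries for siMFN1, siMFN2 and siMFN1+2 in IMR-90 and for all 4 siRNAs in SK-MEL-103, in that libraries of the same number deviated together from their group means. With the number as a block in the fit of all libraries, PPRC1 was called higher with siMFN1+2 in IMR-90 (0.41, adjusted p = 0.0375), where it had 77.4, 84.4 and 97.9 CPM, against 52.7, 71.0 and 71.9 CPM with the control siRNA. A fit of the 6 libraries of a comparison with the block, added after the data were seen, called far more genes. It called 17.9% of genes for siMFN1, 14.8% for siMFN2 and 18% for siMFN1+2 in IMR-90 and 19% for siMFN1 in SK-MEL-103, and the regulators must be read against those shares. There PPARGC1A (1.44, adjusted p = 0.0123) and PPARA (0.61, adjusted p = 0.0183) were higher with siMFN1 in IMR-90. PPARGC1A had 81, 47 and 9 counts in those libraries, or 1.08, 1.505 and 0.492 CPM, against 0.302, 0.587 and 0.344 CPM with the control siRNA, so the shallow libraries of number 3 barely differed. GABPA was higher with siMFN2 (0.32, adjusted p = 0.0455) and with siMFN1+2 (0.34, adjusted p = 0.0323), as were PPRC1 (0.41, adjusted p = 0.0172) and PPARA (0.46, adjusted p = 0.0341) with siMFN1+2. In SK-MEL-103 with siMFN1, PPARGC1A was higher (0.65, adjusted p = 0.0177) and ESRRA (-0.20, adjusted p = 0.00452), PPRC1 (-0.17, adjusted p = 0.0189) and PPARD (-0.17, adjusted p = 0.0419) were lower. PPARGC1A had 2.04, 2.35 and 1.20 CPM there, against 1.30, 1.31 and 1.08 CPM. This fit called no regulator for siMFN2, siMFN1+2 or siMAVS in SK-MEL-103, where it called 6.78%, 8.49% and 0.0604% of genes, or for either compound. It was not made for siMAVS in IMR-90, whose numbers did not pair.

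PPRC1 was above its controls in all 12 silenced IMR-90 libraries, with 73.2 to 97.9 CPM and a median of 78.5, against 52.7 to 71.9 CPM, and under the 123.3 to 135 CPM of proliferating cells. Its log2 fold changes were 0.34, 0.27, 0.41 and 0.19 for siMFN1, siMFN2, siMFN1+2 and siMAVS, with adjusted p of 0.198, 0.357, 0.113 and 0.505. The 3 controls are the same each time. Among all genes tested 2.13% had all 12 silenced libraries above the controls, and with siMFN2 alone 17.4% did not overlap. In SK-MEL-103 PPRC1 had 65.8 to 113 CPM in silenced libraries, against 81.0 to 90.1 CPM, which overlap. NRF1 had 7.41 to 12.2 CPM over the 12 silenced IMR-90 libraries, with a median of 9.50, against 9.86 to 10.7 CPM in the controls, and its log2 fold changes ran from -0.16 to 0.03. In SK-MEL-103 it had 10.9 to 14.2 CPM, with a median of 12.4, against 11.8 to 13.8 CPM. All of these lie under the 22.0 to 24.1 CPM of proliferating IMR-90 and the 16.3 to 24.4 CPM of proliferating SK-MEL-103. PPARD had 50.3 to 98.0 CPM over the 12 silenced IMR-90 libraries, with a median of 60.3, against 48.4 to 69.0 CPM in the controls. Its highest silenced library was above the lowest proliferating IMR-90 library given earlier. GABPA had 38.3 to 61.9 CPM, with a median of 45.5, against 29.9 to 47.1 CPM. ESRRA had 26.4 to 50.3 CPM, with a median of 34.9, against 28.7 to 37.4 CPM. These ranges of PPARD, GABPA and ESRRA overlap their controls. PPARGC1B had 1.81, 2.21 and 1.51 CPM with siMFN1+2 in IMR-90, all above the 0.725 to 1.33 CPM of the controls (0.77, 95% interval -0.37 to 1.91, adjusted p = 0.529). In SK-MEL-103 ESRRA with siMFN1, PPARGC1A with siMFN2 and NRF1 with siMAVS lay wholly under their controls, with log2 fold changes of -0.20, -0.37 and -0.12 and adjusted p of 0.919, 1 and 1. These are 3 of 32 tests in that line, and groups did not overlap for 16.6%, 12.4%, 12.4% and 10.1% of all genes with siMFN1, siMFN2, siMFN1+2 and siMAVS, so nothing is read from them.

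With the compounds every regulator overlapped its DMSO libraries, as did all but 5.49% of genes with MFI8 and 3.44% with BI. For MFI8 at 20 µM PPARGC1A had 0.584, 0.413 and 0.690 CPM, for BI at 10 µM it had 0.775, 0.814 and 0.713 CPM, and in DMSO it had 0.790, 0.287 and 0.650 CPM. The log2 fold changes over DMSO were -0.12 (95% interval -0.96 to 0.73) for MFI8 and 0.38 (95% interval -0.42 to 1.18) for BI. For PPRC1, which was the most precisely measured, they were 0.07 (95% interval -0.12 to 0.26) and -0.03 (95% interval -0.21 to 0.16). NRF1 had 0.04 (95% interval -0.35 to 0.43) and 0.03 (95% interval -0.36 to 0.42). PPARA had 0.19 (95% interval -0.16 to 0.55) and 0.10 (95% interval -0.26 to 0.46). The 2 compounds were given at different concentrations, so no comparison between them is made.

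**Figure D4:**
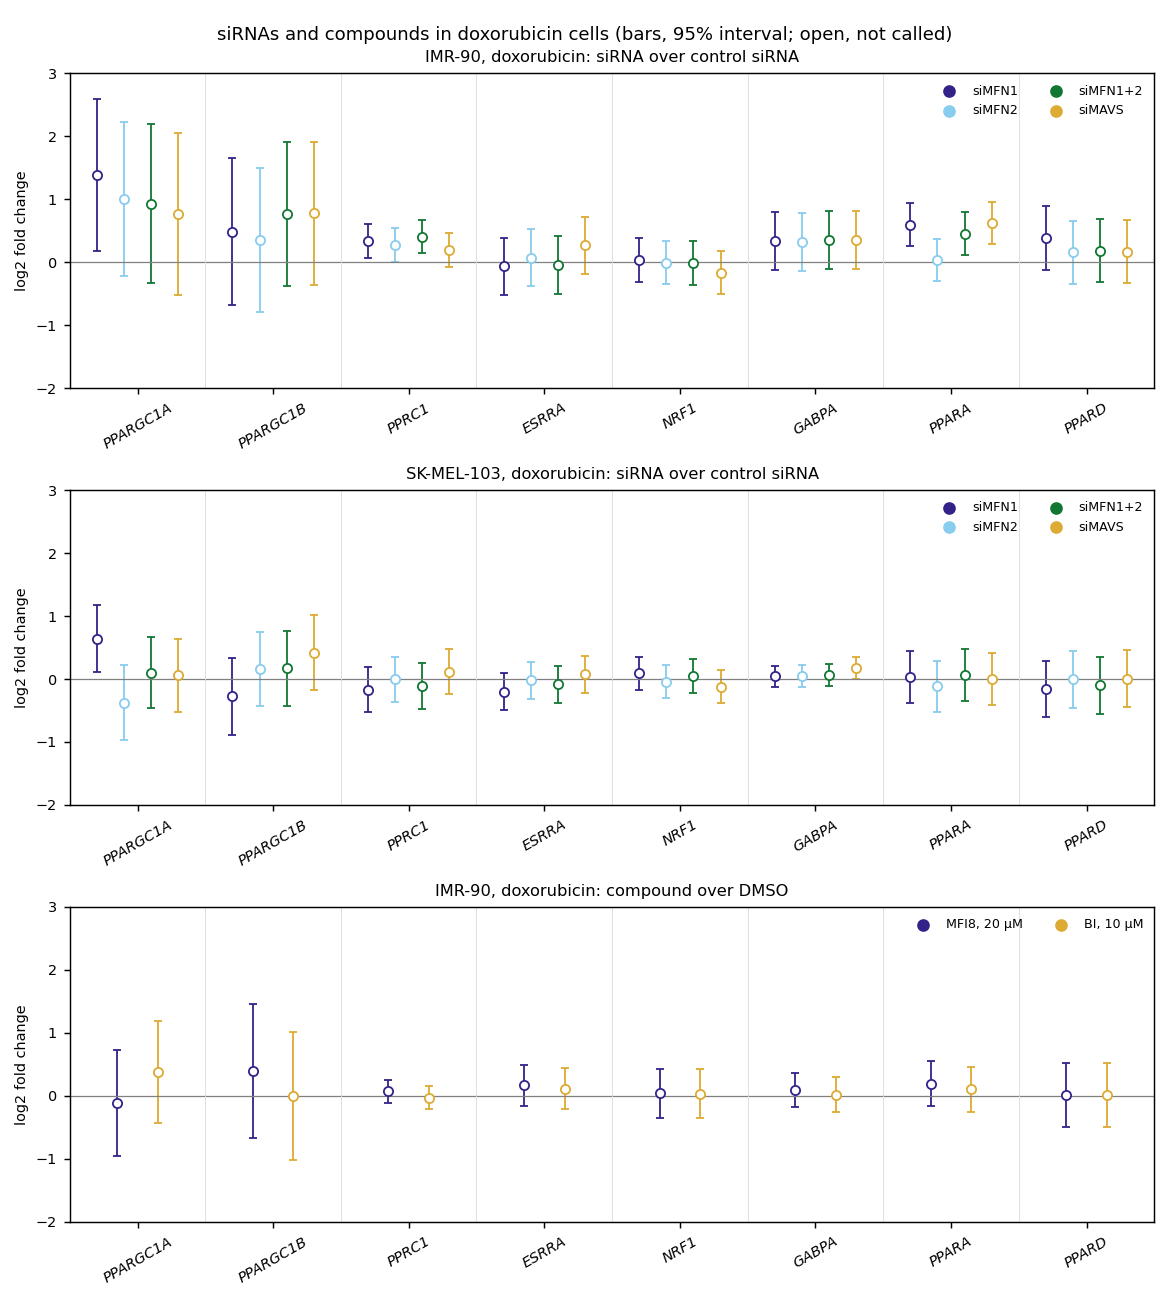
Log2 fold change (vertical axis) of each regulator for the 4 siRNAs over the control siRNA in doxorubicin IMR-90 (top) and SK-MEL-103 (middle) and for MFI8 and BI over DMSO in doxorubicin IMR-90 (bottom), with 95% intervals. All points are open, as none is called at an adjusted p below 0.05 in the fits without a replicate block. PPARA lies at 0.59 with siMFN1, 0.03 with siMFN2 and 0.62 with siMAVS in IMR-90.

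Genes on which these regulators are known to act were read from the same fits. Over all genes tested, 24.4%, 30.6% and 27.1% fell in IMR-90 with the control siRNA, SK-MEL-103 and IMR-90 in DMSO. In that order 27.4%, 29.8% and 28.8% rose. Of 12 genes for transcription and replication of mitochondrial DNA, 0 rose in any of the 3 doxorubicin comparisons by the edgeR test, also at an unadjusted p below 0.05, and 4 fell in IMR-90 with the control siRNA, 9 in SK-MEL-103 and 9 in IMR-90 in DMSO, with median log2 fold changes of -0.51, -0.69 and -0.80. TFAM, which packages mitochondrial DNA and starts its transcription, had 24.8, 37.3 and 17.0 CPM in doxorubicin IMR-90, against 110.3, 51.5 and 97.4 CPM (-1.68, SE 0.42, adjusted p = 0.00366). It had 61.5, 54.5 and 58.7 CPM in doxorubicin SK-MEL-103, against 127, 169.9 and 111 CPM (-1.32, SE 0.12, adjusted p = 5.54e-08), and 29.9, 21.7 and 35.8 CPM in doxorubicin IMR-90 in DMSO, against 87.7, 103 and 86.2 CPM (-1.66, SE 0.23, adjusted p = 0.000151). MTERF3, a mitochondrial ribosome assembly and transcription factor, fell by 1.63 in IMR-90 with the control siRNA (adjusted p = 1.47e-06) and by 1.26 in SK-MEL-103 (adjusted p = 4.27e-06).

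Of 31 respiratory chain, citrate cycle and import genes, 0 rose by the edgeR test (1, 1 and 0 at an unadjusted p below 0.05, and 1, 1 and 0 by DESeq2 or with RLE scaling) and 15, 25 and 19 fell in IMR-90 with the control siRNA, SK-MEL-103 and DMSO, with medians of -0.35, -0.35 and -0.40. In the same order 24.4%, 30.6% and 27.1% of all genes tested fell and 27.4%, 29.8% and 28.8% rose. Examples were IDH3A, a subunit of isocitrate dehydrogenase, with 38.8 ± 7.16 CPM in doxorubicin IMR-90 and 79.1 ± 21.7 CPM in proliferating cells (adjusted p = 0.00163), and citrate synthase (CS), with 139 ± 6.14 and 249.9 ± 26.1 CPM (adjusted p = 1.13e-05). In SK-MEL-103 cytochrome c (CYCS) averaged 76.4 ± 4.39 CPM in doxorubicin cells and 187 ± 38.1 CPM in proliferating cells (adjusted p = 8.8e-09). The mitochondrially encoded transcripts took 2.34 to 4.93% of counts in the 9 doxorubicin control and DMSO libraries and 0.691 to 1.35% in the 9 proliferating libraries.

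The list of PPAR targets and fatty acid oxidation genes split. Of 27 tested in IMR-90, 9 rose and 3 fell with the control siRNA and 11 rose and 3 fell in DMSO, and of 24 tested in SK-MEL-103 12 rose and 6 fell. The median log2 fold changes were 0.16, 0.36 and 0.48 in that order. Of all genes tested 27.4%, 28.8% and 29.8% rose and 24.4%, 27.1% and 30.6% fell, in the same order. ANGPTL4, a secreted lipase inhibitor that PPARs induce, rose to 129 ± 32.3 CPM in doxorubicin IMR-90, against 1.23 ± 0.784 CPM in proliferating cells (6.70, SE 0.56, adjusted p = 3.36e-07). It was the 1 gene of this list called with siMFN1, at 26.0 ± 3.07 CPM, against 129 ± 32.3 CPM with the control siRNA (-2.31, SE 0.44, adjusted p = 0.0193). PPARA was above its controls in the same siMFN1 libraries but not called (edgeR adjusted p = 0.0779), and 18.8% of all genes did not overlap there. A link between the levels of PPARA and ANGPTL4 was not tested. UCP2, an inner membrane carrier, fell in all 3 comparisons, by 1.75 in IMR-90 with the control siRNA (adjusted p = 5.35e-05), by 2.82 in SK-MEL-103 (adjusted p = 3.8e-11) and by 2.13 in DMSO (adjusted p = 4.07e-05). The carnitine carrier SLC25A20 rose in SK-MEL-103, with 14.8 ± 1.27 CPM in doxorubicin cells and 3.30 ± 1.79 CPM in proliferating cells (adjusted p = 1.08e-06).

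Partners and coregulators differed between the lines. Of 23 tested in IMR-90, 2 rose and 12 fell with the control siRNA and 6 rose and 9 fell in DMSO, while of 21 tested in SK-MEL-103 6 rose and 6 fell, with medians of -0.55, -0.31 and 0.11. Of all genes tested 27.4%, 28.8% and 29.8% rose and 24.4%, 27.1% and 30.6% fell, in the same order. The doxorubicin effect was higher in SK-MEL-103 than in IMR-90 for 12 of 23 and lower for 0, beside 2724 higher and 1914 lower among 20892 genes. With RLE scaling 9 of the 23 were higher and 0 lower, the split over all genes was 1893 higher and 2511 lower, and the median of all genes moved by -0.16. NRIP1, a corepressor that opposes PGC-1 coactivators, had 27.4 ± 6.92 CPM in doxorubicin IMR-90, against 79.5 ± 5.75 CPM in proliferating cells (-1.51, adjusted p = 0.000231), and its effect was higher in SK-MEL-103 by 1.45 (adjusted p = 0.000565). SIRT1, a deacetylase of PGC-1 alpha, fell by 0.61 in SK-MEL-103 (adjusted p = 0.000184). PPARG, the adipocyte relative of PPARA and PPARD, had 5.37, 3.75 and 12.5 CPM in doxorubicin IMR-90, against 14.9, 32.1 and 21.1 CPM in proliferating cells (-1.66, SE 0.67, adjusted p = 0.0489), and at most 0.0751 CPM in any SK-MEL-103 library. Of 28 upstream signalling genes, 5 rose and 11 fell in IMR-90 with the control siRNA, 13 rose and 6 fell in SK-MEL-103, and 5 rose and 10 fell among 27 in DMSO, with medians of -0.34, 0.27 and -0.23. The shares over all genes given in this paragraph stand beside these counts too. CAMK4, a calcium-dependent kinase that can activate CREB, fell in all 3, by 2.33, 1.43 and 2.18 (adjusted p = 3.32e-05, 1.09e-08 and 1.05e-06). Of these 2 lists, 1 gene was called with an siRNA, MEF2C, a muscle factor that acts on the PPARGC1A promoter in mice, at 13.2 ± 1.25 CPM with siMFN1 in IMR-90, against 4.98 ± 0.772 CPM (adjusted p = 0.0418).

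**Figure D5:**
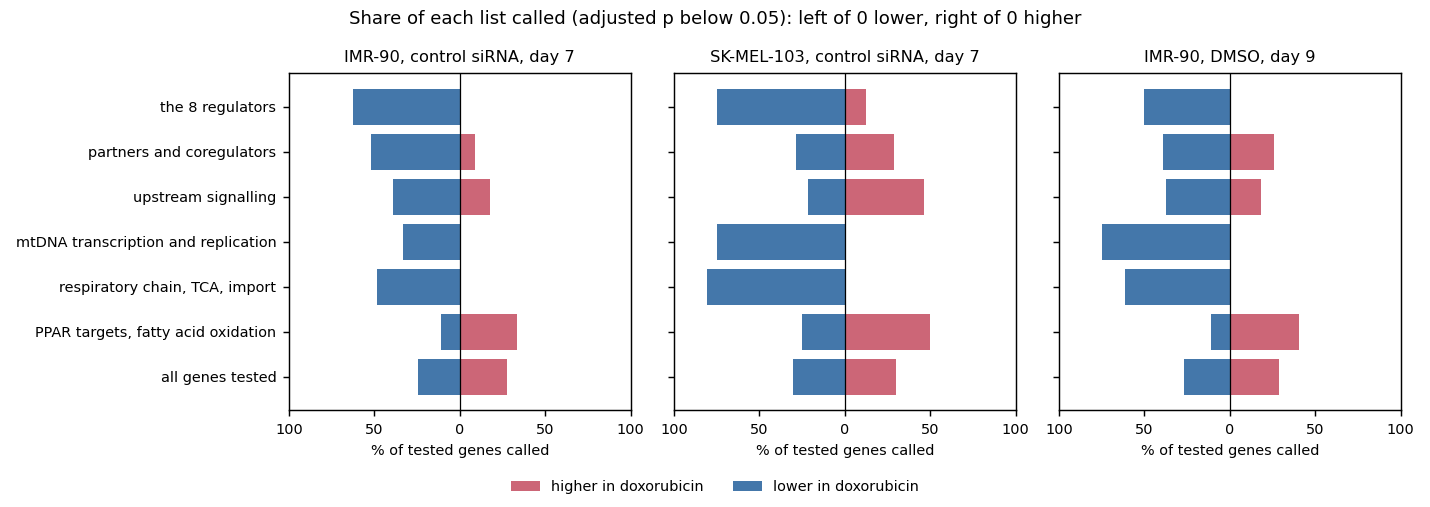
Percentage of tested genes called lower (blue, left of 0) or higher (red, right of 0) in doxorubicin than in proliferating cells, for the 8 regulators, 5 lists and all genes tested, in 3 comparisons. The lists for mitochondrial DNA and for the respiratory chain have no red bar, with 0 genes higher in any comparison, and the PPAR list has more red than blue in each.

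Across the 16 group means, centred within each experiment, PPRC1, NRF1, GABPA and PPARD ran together. Pearson's r of log2 CPM was 0.97 between PPRC1 and PPARD, 0.92 between PPRC1 and NRF1, 0.90 between NRF1 and PPARD, 0.90 between PPRC1 and GABPA, 0.84 between GABPA and PPARD and 0.82 between NRF1 and GABPA. ESRRA had r = -0.74 with NRF1 and -0.58 with PPRC1, and PPARA lay between -0.57 with PPARGC1B and 0.17 with GABPA. These are descriptions with no p, since the means share libraries, controls and the split of doxorubicin against proliferating groups, which alone gives a high r to any genes that changed with it. By the same measure, among 10921 genes at an average of 2 or more on the log2 CPM scale, the genes most like NRF1 were EXOSC10, RAD21 and CDCA4 (r = 0.993, 0.993 and 0.992). The genes most like PPRC1 were NAA50, CLN6 and HEATR1 (0.99, 0.99 and 0.989), and those most like PPARD were POP1, POLR3B and THOC3 (0.99, 0.987 and 0.986). GABPA was nearest to INTS2, CLOCK and ERCC4 (0.97, 0.969 and 0.969) and PPARA to ZBTB7A, ABI1 and ZNF629 (0.938, 0.936 and 0.932). For ESRRA, PPARGC1A and PPARGC1B the nearest named genes reached 0.89 (ZNF584-DT), 0.866 (ZNF845) and 0.90 (NEIL2).

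On GRCh38, in GENCODE 29, the protein-coding genes lie as follows. PPARGC1A (ENSG00000109819) spans chr4:23755041-23904089 on the minus strand, and its first RefSeq window, at chr4:24472856-24473155, lies outside that span. Its second window, at chr4:23881052-23881351, lies inside it. PPARGC1B (ENSG00000155846) spans chr5:149730298-149855022 and PPRC1 (ENSG00000148840) chr10:102132994-102150331. The PPARGC1B window, at chr5:149771690-149771989, lies inside the span of PPARGC1B, away from its start. ESRRA (ENSG00000173153) spans chr11:64305572-64316743, NRF1 (ENSG00000106459) chr7:129611714-129757082 and GABPA (ENSG00000154727) chr21:25734570-25772460. PPARA (ENSG00000186951) spans chr22:46150521-46243756 and PPARD (ENSG00000112033) chr6:35342558-35428191, all on the plus strand from PPARGC1B on. NRF1 exons share 2.71% of their length with a 5S rRNA pseudogene on the same strand, and the exons of the other 5 regulators share none with an annotated gene.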

How the data were processed

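Per the submitters' processing notes, the authors made the deposited raw counts per gene with Trim Galore 0.6.7, STAR 2.7.10a and featureCounts on GRCh38. The libraries came from a stranded mRNA kit, per the labels. The annotation release and the strand setting of the counting are not given in the sources used here. Symbols were found for 48679 of 48898 genes, and the others held 0.122% of counts. In R 4.3.3, edgeR 4.0.16 (with limma 3.58.1) fitted each experiment, the 36 siRNA libraries together and all IMR-90 libraries, with filterByExpr, TMM scaling and quasi-likelihood F tests, adjusted over all genes. DESeq2 1.42.0 and the other settings named in the closing section were alternatives. The fits were tested on simulated data.

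The regulators and the gene lists were chosen with earlier results of these data known. A list's called genes could be named where they were among its 2 most raised or 2 most lowered in a comparison, beside close relatives and partners of the regulators and genes that check the labels. CPT1A and the levels of ANGPTL4 in SK-MEL-103 were chosen after their values were seen.

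Replicate numbers are those of the titles, and 1 SK-MEL-103 siMFN2 library without a number was taken as number 1. By the deviations of 10945 genes from their group means, the numbers paired the libraries in 10 of 13 comparisons (r from 0.144 to 0.96). They did not in the 2 siRNA experiments' comparisons of doxorubicin with proliferating cells or with siMAVS in IMR-90. In the siMAVS comparison, replicate 3 sets the authors' library 35 against control library 89. The labels do not say what the gap in these numbers stands for. No library was a copy of another of its own group, since the chi-square statistic divided by its degrees of freedom was at least 10.02 in all 48 pairs within groups. Pairs across groups were not compared.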

Additional observations from a re-analysis of the deposited data

Results flagged for a closer look

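The doxorubicin effect on PPARA differed between the lines by a tested contrast. The log2 fold change was 1.02 in SK-MEL-103 and -0.63 in IMR-90, and the contrast was 1.76 (SE 0.27, 95% interval 1.21 to 2.31, edgeR adjusted p = 2.91e-05). All 3 doxorubicin libraries were above all 3 proliferating ones in SK-MEL-103, and all 3 were under them in IMR-90.

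The effect on PPARGC1B also differed, with -1.74 in SK-MEL-103 and 0.03 in IMR-90 and a contrast of -1.68 (SE 0.60, 95% interval -2.91 to -0.45, edgeR adjusted p = 0.0432). The proliferating IMR-90 library numbered 2 held 9 counts of PPARGC1B, against 104 and 33 in the libraries numbered 1 and 3, and without it the contrast was -1.26 (adjusted p = 0.118). The edgeR call was also lost without any 1 of several other libraries, as given above. Without a filter on low counts its adjusted p was 0.0709.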

How the results depend on the processing

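No log2 fold change of a regulator that was called changed its sign under any alternative, and 2251 of the recomputed values stayed on their side of the threshold, 25 lost their call and 19 gained one. The number of regulators called moved by over 1.5 times as follows. With siMFN1 in IMR-90 it was 1 by DESeq2 and 2 with the replicate block in a fit of the 6 libraries, against 0. With siMFN2 that block gave 1, with siMFN1+2 3 (and 1 with the block in the fit of all libraries), and with siMFN1 in SK-MEL-103 4, each against 0. With siMAVS in IMR-90 DESeq2 gave 1, against 0. The difference of doxorubicin effects between the lines gave 1 without a filter on low counts, against 2. Changes of 1 call within that factor were 5 to 4 for doxorubicin in IMR-90 with only libraries numbered 19 to 35, 7 to 6 in SK-MEL-103 without a filter, 4 to 5 in DMSO with the block, 4 to 3 there with the block in 6 libraries, and 5 to 4 between doxorubicin cells of the lines with RLE scaling or DESeq2. With 1 library left out the numbers ran from 4 to 5 for doxorubicin in IMR-90, 3 to 4 in DMSO, 1 to 3 for the difference between lines, 4 to 5 for each comparison of the lines and 0 to 1 for siMFN1 and siMAVS in IMR-90, and did not move elsewhere. For siMFN1 and siMAVS the gain came without the control library numbered 2, and for siMAVS also without its own library numbered 1.

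Calls over all genes in the siRNA comparisons depended on the fit. For siMFN1 in IMR-90, 302 genes became 93 without a filter, 724 with the replicate block, 852 by DESeq2, 3 with only the 6 libraries, 68 with only libraries numbered 19 to 35 and 3200 with the block in the fit of 6 libraries, an alternative chosen after the data were seen. In the same order the 43 genes of siMFN2 became 17, 226, 327, 1, 7 and 2670 and the 300 of siMFN1+2 became 147, 691, 871, 2, 35 and 3260. The 121 of siMAVS became 47, 409, 581 and 0 by the first 4. In SK-MEL-103 the 22 of siMFN1 became 75 with the block, 47 by DESeq2 and 3185 with the block in 6 libraries, the 12 of siMFN2 21 by DESeq2, 3 with only 6 libraries and 1145 with the added block, the 43 of siMFN1+2 69 by DESeq2 and 1433 with the added block, and the 18 of siMAVS 7 with only 6 libraries and 10 with the added block. The added block called 503 genes for MFI8 and 695 for BI. The differences between lines (32, 9, 30 and 9 genes for siMFN1, siMFN2, siMFN1+2 and siMAVS) became 219, 45, 144 and 49 with the block, 175, 28, 91 and 60 by DESeq2, and 12 and 2 without a filter for siMFN1 and siMFN2. For the difference of doxorubicin effects between day 9 and day 7, 0 became 18 with the block and 20 by DESeq2. With 1 library left out, the counts ran from 36 to 300 for siMFN1, 2 to 99 for siMFN2, 44 to 538 for siMFN1+2 and 22 to 231 for siMAVS in IMR-90, and from 7 to 18, 4 to 7, 22 to 32 and 11 to 18 in SK-MEL-103. The cause was not tested. In the comparisons whose numbers did not pair the libraries, the block changed the call of no regulator. There same-numbered libraries had r from -0.626 to 0.493, and in each comparison 1 of 6 libraries deviated most like the library of its own number. Depth limits PPARGC1A in IMR-90, with as few as 6 counts in a library.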

Other observations

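CPT1A, which admits fatty acids to mitochondria and is a classical PPARA target in liver, was chosen here after its values were seen. It averaged 0.0442 ± 0.0331 CPM in doxorubicin SK-MEL-103 and 63.2 ± 8.94 CPM in doxorubicin IMR-90, and 0.0108 ± 0.0187 and 57.6 ± 10.53 CPM in the proliferating cells (SD, n = 3 each). The PPAR target ANGPTL4 averaged 0.0661 ± 0.0529 CPM in doxorubicin SK-MEL-103 and 129 ± 32.3 CPM in doxorubicin IMR-90. Both were the most lowered of the PPAR list between doxorubicin cells of the lines. Of the 28 genes of that list tested, 11 were higher and 12 lower in SK-MEL-103, beside 30.6% and 32.8% of all genes. Between proliferating cells 7 were higher and 11 lower, beside 23.9% and 28% of all genes.

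Mitochondrially encoded transcripts took 0.383 to 1.10% of counts in IMR-90 libraries with siMFN1+2, against 3.79 to 4.93% with the control siRNA. The shares were 1.27 to 3.11% with siMFN2 and 2.69 to 3.54% with siMAVS, also under the controls, and 2.60 to 4.28% with siMFN1. They were 1.18 to 1.53% in SK-MEL-103 with siMFN1+2, against 2.34 to 2.75%.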
